A study of Mus musculus with 4 samples.

Results

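CC chemokines are small secreted proteins that draw leukocytes along a concentration gradient, and 8 of their genes (Ccl2, Ccl5, Ccl6, Ccl7, Ccl8, Ccl9, Ccl11 and Ccl20) were followed in the epithelium and the mesenchyme of mouse colonic organoid cultures. The members were chosen by gene symbol, 8 of the 30360 genes in the deposited table, and each was found once and had UMIs (unique molecular identifiers, each standing for 1 counted RNA molecule) in every library. RNA was counted in single cells of 4 cultures, with 1 library and therefore 1 sample per group, so that no value below has a replicate and no p-value is given. The groups were wildtype (WT) untreated, WT with tumor necrosis factor (TNF), Tnfr2-/- untreated and Tnfr2-/- with TNF, and values that follow one another in 4s are in this order. Tnfr2-/- mice lack TNF receptor 2 in the whole body, so both compartments of their cultures carried the deletion. All cultures came from distal colon of mice aged 16 weeks, were grown in Matrigel to passage 5, received TNF at 20 ng/ml or vehicle from day 1 to day 6, and were harvested on day 7 and depleted of apoptotic cells.

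A CC chemokine carries 2 neighbouring cysteines near its amino terminus and acts through G protein-coupled receptors of the CCR family on the responding cell. In the gut such ligands recruit monocytes, eosinophils, lymphocytes and dendritic cells. TNF, acting mostly through TNF receptor 1 and the factor NF-kB, is a textbook inducer of many of them in stromal and epithelial cells. Ccl2 and Ccl7 are ligands of CCR2, the receptor that brings monocytes out of the blood. Ccl11 (eotaxin) is a ligand of the eosinophil receptor CCR3, and Ccl20 of CCR6 on B cells and Th17 cells. Ccl5 (RANTES) draws T cells and macrophages. Ccl6 and Ccl9 are rodent ligands of CCR1, and mouse Ccl8 is known as a ligand of CCR8.

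The libraries held 2589, 1469, 1117 and 980 cells, with median UMIs per cell between 26293 and 39112. The mesenchyme, annotated by the authors beside the epithelium, made up 55.2%, 20.8%, 8.06% and 12.4% of the cells. That left 1430, 306, 90 and 122 mesenchymal cells and 1128, 1163, 1023 and 858 epithelial cells, and the remaining 35 cells had no class. Summed markers of the mesenchyme were between 9364 and 15956 CPM (the UMIs of a gene scaled to a common library total) in the cells annotated as mesenchyme and between 5.59 and 24.1 CPM in those annotated as epithelium. Epithelial markers summed to 267, 226, 151 and 874 CPM in the mesenchyme, so the Tnfr2-/- TNF mesenchyme held the highest level of them. Of the 6152 barcodes, 3 occurred in more than 1 library. The transcript of the deleted receptor, Tnfrsf1b, was at 9.76, 14, 2.05 and 7.59 CPM and was therefore not absent from the Tnfr2-/- libraries. Xist was at 553 to 705 CPM in both WT compartments and at or under 0.459 CPM in those of Tnfr2-/-, so that sex and genotype cannot be told apart here. Y-linked transcripts were at 143 and 135 CPM in the Tnfr2-/- mesenchyme and at 0.079 and 0.151 CPM in its epithelium, and at 5.32 and 29.4 CPM in the WT epithelium, so that the compartments of a culture did not match in sex-linked transcripts.

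On mouse chromosome 11 the 7 members other than Ccl20 lay in a pair of neighbourhoods (coordinates from GENCODE M21 on GRCm38). Ccl2 (ENSMUSG00000035385, chr11:82035571-82037453), Ccl7 (ENSMUSG00000035373, chr11:82045712-82047525), Ccl11 (ENSMUSG00000020676, chr11:82057823-82062955) and Ccl8 (ENSMUSG00000009185, chr11:82115185-82116799) stood on the plus strand within 81.2 kb. After a gap of 1409 kb, Ccl5 (ENSMUSG00000035042, chr11:83525778-83530518), Ccl9 (ENSMUSG00000019122, chr11:83572919-83578636) and Ccl6 (ENSMUSG00000018927, chr11:83587882-83593087) stood on the minus strand within 67.3 kb. Ccl20 (ENSMUSG00000026166) was on chromosome 1, at chr1:83116766-83119167 on the plus strand. Summed over the 4 libraries, the UMIs of a member ranged from 1000 for Ccl9 to 192215 for Ccl2.

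**Figure D1:**
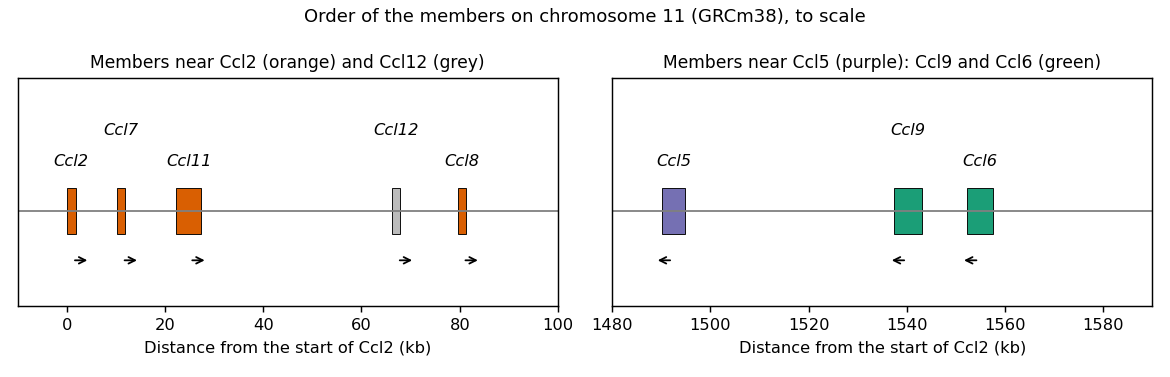
Boxes, to scale, mark the 7 members on chromosome 11 and Ccl12 (grey) in kb from the start of Ccl2, with arrows for the strand and colours for Ccl5 (purple), the members near Ccl2 (orange) and Ccl6 and Ccl9 (green). Ccl2, Ccl7, Ccl11 and Ccl8 share an 81.2 kb stretch and Ccl5, Ccl9 and Ccl6 a second one of 67.3 kb.

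The feature that names the family is shown here from the coding sequences, because it is shared by genes that otherwise differed in where they were counted. Each line is 24 bases of the coding strand (GRCm38, GENCODE M21 coding exons), and capitals mark the codons of the paired cysteines.
Ccl2 (chr11:82036497-82036520, plus strand): ccactcaccTGCTGCtactcattc
Ccl7 (chr11:82046529-82046552, plus strand): gcatccacaTGCTGCtatgtcaag
Ccl11 (chr11:82061687-82061710, plus strand): ccaacttccTGCTGCtttatcatg
Ccl8 (chr11:82116047-82116070, plus strand): ccagtcaccTGCTGCtttcatgta
Ccl5 (chr11:83529233-83529256, minus strand): accactcccTGCTGCtttgcctac
Ccl9 (chr11:83575917-83575940, minus strand): tcttcagatTGCTGCctgtcctat
Ccl6 (chr11:83589377-83589400, minus strand): tcttcagacTGCTGCttctcttat
Ccl20 (chr1:83117804-83117827, plus strand): aactacgacTGTTGCctctcgtac
The pair was written TGCTGC in 7 members and TGTTGC in Ccl20, and it lay in exon 3 of Ccl6 and Ccl9 and in exon 2 of the others. Over the 28 pairs of members, coding identity was highest for Ccl7 with Ccl11 (66.3%), Ccl6 with Ccl9 (65.1%), Ccl7 with Ccl8 (64.1%) and Ccl8 with Ccl11 (63.3%). The longest run of identical bases between transcripts of members was 25 bases, in Ccl6 and Ccl9, so that few reads could have been split between these genes.

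Most of the members were counted in 1 compartment. Ccl20 was higher in the epithelium in every library, and Ccl2, Ccl7 and Ccl8 were higher in the mesenchyme in every library, each by 2-fold or more. Of the 9914 genes at 5 CPM or more in 1 of the compartments of every library, 10.7% were higher in the epithelium in all 4 and 14.9% were higher in the mesenchyme in all 4, against 1 and 3 of the 5 members that passed that filter. Ccl6, Ccl9 and Ccl11 did not pass the filter in every library. The fifth member that passed, Ccl5, was higher in the epithelium of the WT untreated culture and higher in the mesenchyme of the other 3, with log2 differences (epithelium minus mesenchyme) of 3.17, -1.01, -1.14 and -4.92. The plot of levels by library shows all 8 members in both compartments.

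**Figure D2:**
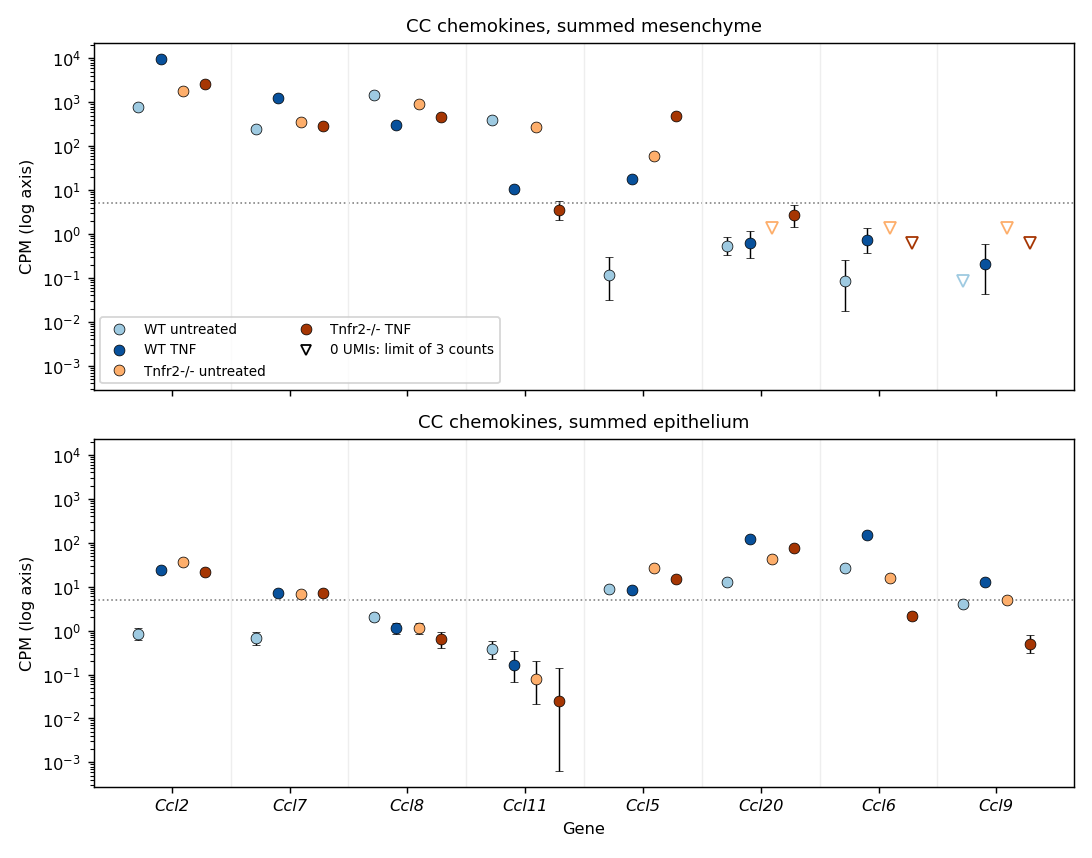
CPM (log axis) of each member in the epithelium and the mesenchyme of the 4 libraries, 1 point per library, with exact Poisson 95% intervals, open triangles at the limit of 3 counts for sums of 0 UMIs, and a dotted line at 5 CPM. Ccl2, Ccl7 and Ccl8 lie higher in the mesenchyme of all 4 libraries and Ccl20 higher in the epithelium of all 4.

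Ccl2, the monocyte ligand, was the highest member in the mesenchyme of the 3 cultures other than WT untreated. Its mesenchymal level was 761 CPM (95% interval 752–770), 9886 (9836–9937), 1799 (1743–1856) and 2555 (2510–2601), where the exact Poisson intervals, here and below, reflect counting error alone and say nothing of variation between cultures. The WT TNF culture was highest, at 13-fold (12.8–13.2) the WT untreated level, and the Tnfr2-/- TNF culture was at 1.42-fold (1.37–1.47) its untreated counterpart. The untreated Tnfr2-/- mesenchyme was at 2.36-fold (2.29–2.44) the untreated WT mesenchyme. The interval in each of these ratios leaves out 1, but it takes no account of how UMIs were spread over cells. In Tnfr2-/- untreated 1 of 90 mesenchymal cells held 22.6% of the Ccl2 UMIs.

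The Ccl2 level of single mesenchymal cells was spread over the whole population in WT TNF. After each cell was thinned to 5000 UMIs, which evens out depth and left out 405 shallower cells of the series, Ccl2 was seen in 62.5%, 99.3%, 68.6% and 64.2% of mesenchymal cells. The cells left out were uneven between libraries, with 43, 290, 33 and 12 in the epithelium and 13, 8, 4 and 2 in the mesenchyme. Without thinning, 1159 of 1430, 306 of 306, 75 of 90 and 103 of 122 cells held a UMI. The share in thinned epithelial cells was 0.553%, 9.97%, 3.23% and 4.85%. It is no plain measure of stray RNA, because some epithelial cells of the Tnfr2-/- libraries held many Ccl2 UMIs, as given below. The median mesenchymal cell was at 253, 9020, 609 and 657 CPM. In WT TNF the median cell was close to the summed level, and in the other 3 libraries the sum stood well above the median cell. There, 50% of the Ccl2 UMIs lay in 117 of 1430, 7 of 90 and 12 of 122 cells, against 76 of 306 cells in WT TNF.

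Ccl7, which lies 8.26 kb downstream of Ccl2 and shares its receptor, was lower in level and highest in the same culture. Its mesenchymal level was 244, 1232, 352 and 285 CPM. WT TNF was at 5.05-fold (4.92–5.18) the WT untreated level, and the other 3 cultures lay close together, between 244 and 352 CPM. In thinned mesenchymal cells it was seen in 40%, 85.9%, 44.2% and 39.2%. Within the Ptges class of mesenchyme, cells with more Ccl2 also held more Ccl7, with a Spearman rho of 0.54 over 296 WT TNF cells and 0.84 over 120 Tnfr2-/- TNF cells. It was 0.37 over 890 cells of the Ifitm1 class in WT untreated. These correlations describe cells of 1 library that share its depth and its background, and are no test.

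Ccl8 and Ccl11, the neighbours of Ccl7 in the same stretch of chromosome, ran the other way. Ccl8 was at 1447, 302, 938 and 464 CPM in the mesenchyme, and each TNF culture lay below each untreated one. It was 4.8-fold (4.65–4.95) lower in WT TNF than in WT untreated and 2.02-fold (1.91–2.15) lower in Tnfr2-/- TNF than in Tnfr2-/- untreated. Ccl11, the eosinophil ligand, was at 398, 10.5, 281 and 3.56 CPM, the last from 17 UMIs. The TNF cultures were again the low ones, by 38-fold (32.5–44.9) in WT and 78.8-fold (48.8–136) in Tnfr2-/-.

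The share of mesenchymal cells with these transcripts followed the levels. Thinned, Ccl11 was seen in 34.5%, 3.02%, 29.1% and 1.67% of mesenchymal cells and Ccl8 in 69.9%, 31.2%, 69.8% and 47.5%. No Tnfr2-/- TNF cell held 20 or more UMIs of Ccl11, against 241 cells in WT untreated, 3 in WT TNF and 8 in Tnfr2-/- untreated. The median mesenchymal cell held Ccl8 at 474, 26.2, 369 and 95.6 CPM, so that the low value of WT TNF was that of the typical cell as well as of the sum.

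The mesenchymal classes differed between the libraries, and the class makeup moves with every compartment value above. WT untreated held 892 cells of the Ifitm1 class, 393 generic, 111 proliferative and 34 Ptges cells, whereas 304 of the 306 WT TNF cells and all 122 Tnfr2-/- TNF cells were in the Ptges class. The Tnfr2-/- untreated mesenchyme had 51 generic and 37 Ptges cells. In a sum over a compartment, a different mix of classes and a different level per cell cannot be told apart, and the classes themselves were cut by the authors from the same cells with all genes. The values by class are therefore descriptions.

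Within the Ptges class alone, which all 4 libraries share, WT TNF stayed highest for Ccl2 and Ccl7, and the order of the untreated cultures changed for both. Ccl2 was at 2446, 9927, 1331 and 2555 CPM there, so WT TNF was again highest, by 4.06-fold (3.79–4.35) over WT untreated. In WT untreated 1 of the 34 cells held 421 of the 838 Ccl2 UMIs, and without the top cell of each library, a choice made after seeing the data, the levels were 1412, 9825, 1032 and 2415 CPM and the fold was 6.96. The untreated Tnfr2-/- value lay below the untreated WT value in this class, at a ratio of 0.731 without the top cells, and above it in the generic class (2033 against 726 CPM, 2.8-fold, 2.68–2.93). Ccl7 was at 464, 1239, 246 and 285 CPM, a ratio of 2.67 (2.28–3.14) for TNF in WT and of 4.07 without the top cells.

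Ccl8 and Ccl11 were low with TNF within the Ptges class too. Ccl8 was at 1597, 297, 1024 and 464 CPM, with TNF to untreated ratios of 0.186 (0.17–0.204) in WT and 0.453 (0.418–0.49) in Tnfr2-/-. Ccl11 was at 219, 10.5, 130 and 3.56 CPM, with ratios of 0.0481 (0.0363–0.0643) and 0.0275 (0.0154–0.0461), the latter 0.0142 without the top cells. The class with the highest level of Ccl8 and Ccl11 in WT untreated was the abundant Ifitm1 class (1860 and 481 CPM), while Ccl2 and Ccl7 were highest in the rare Ptges class. The WT untreated Ptges cells were shallow, with a median of 5755 UMIs against 48633 in WT TNF.

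**Figure D3:**
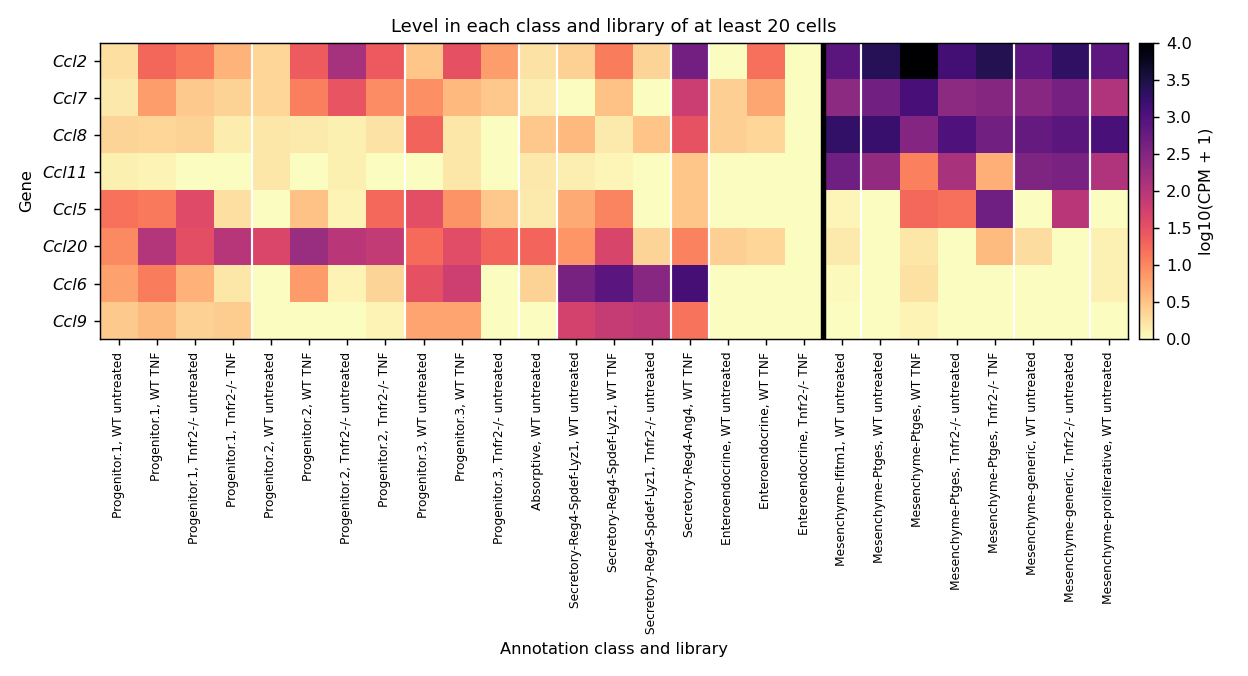
Level of each member (rows) as log10(CPM + 1), by colour, in each annotated class and library of at least 20 cells (columns), with a black line between epithelium and mesenchyme. Ccl2 reaches its highest values in the Ptges mesenchyme of WT TNF, Ccl6 in the secretory classes and Ccl20 in the first and second progenitor classes of WT TNF.

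Ccl5, the T cell and macrophage ligand, was the member with the widest range in the mesenchyme and it was held by very few cells. Its mesenchymal level was 0.115 CPM (4 UMIs), 17.9, 60.6 and 477 CPM, with the Tnfr2-/- TNF culture highest. In that library 9 of 122 mesenchymal cells with 20 or more UMIs held 96.4% of the Ccl5 UMIs, and 1 cell held 1103 of 2275. In Tnfr2-/- untreated, 1 cell held 111 of 132 UMIs. In WT TNF 5 cells held 82.9%. Thinned to 5000 UMIs, Ccl5 was seen in 0%, 2.68%, 6.98% and 14.2% of mesenchymal cells. The 0% was 0 of 1417 cells, with an exact upper bound of 0.26%. The intervals of WT TNF (1.17–5.22) and Tnfr2-/- untreated (2.6–14.6) overlapped. Thinned to 2000 UMIs, the shares were 0.0699%, 2.31%, 2.27% and 9.02%. WT untreated was thus lowest and Tnfr2-/- TNF highest at both depths, as in the sums, and the order of the cultures between them was not settled.

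The immune list was read in the cells with 20 or more Ccl5 UMIs. The 5 mesenchymal cells of WT TNF held 5 UMIs of the list (22.1 CPM against 22.7 CPM in the remaining cells), all of Cd14, and the 1 of Tnfr2-/- untreated held 0. The 9 of Tnfr2-/- TNF held 17 (56.4 against 43.8 CPM), or 13 without Cd14 (43.1 against 20.4 CPM), so that in the library with the most Ccl5 the list was higher in these cells. Their mesenchymal markers were at 8161 CPM against 9446 CPM. Of the 12 genes of the list, 6, 7, 7 and 7 were at 0 in the mesenchyme. Ptprc, Cd3e and Tyrobp, which define leukocytes, T cells and myeloid cells, were among these in all 4 libraries. In Tnfr2-/- TNF 2 genes of the list were at 5 CPM or more, and both were at least 2-fold higher than in Tnfr2-/- untreated, against 7.09% of all genes tested. The immune list as a whole was highest in the same library, at 14.2, 22.7, 7.81 and 44.6 CPM in the mesenchyme, and its part in the Ccl5 result was not tested. In the epithelium Ccl5 was at 9.04, 8.37, 27 and 14.7 CPM and as unevenly held. There, 7 cells of the first progenitor class held 93.7% of its UMIs in Tnfr2-/- untreated, with the immune list at 37.5 CPM against 50.9 CPM in the remaining cells. In Tnfr2-/- TNF 2 cells of the second progenitor class held 83.8%, with the list at 68.4 CPM against 49.9 CPM. Without Cd14 the list was at 6.81 against 11.3 CPM in Tnfr2-/- untreated. In Tnfr2-/- TNF it was at 49.7 (8 UMIs) against 21.4 CPM, higher in the cells with many Ccl5 UMIs.

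**Figure D4:**
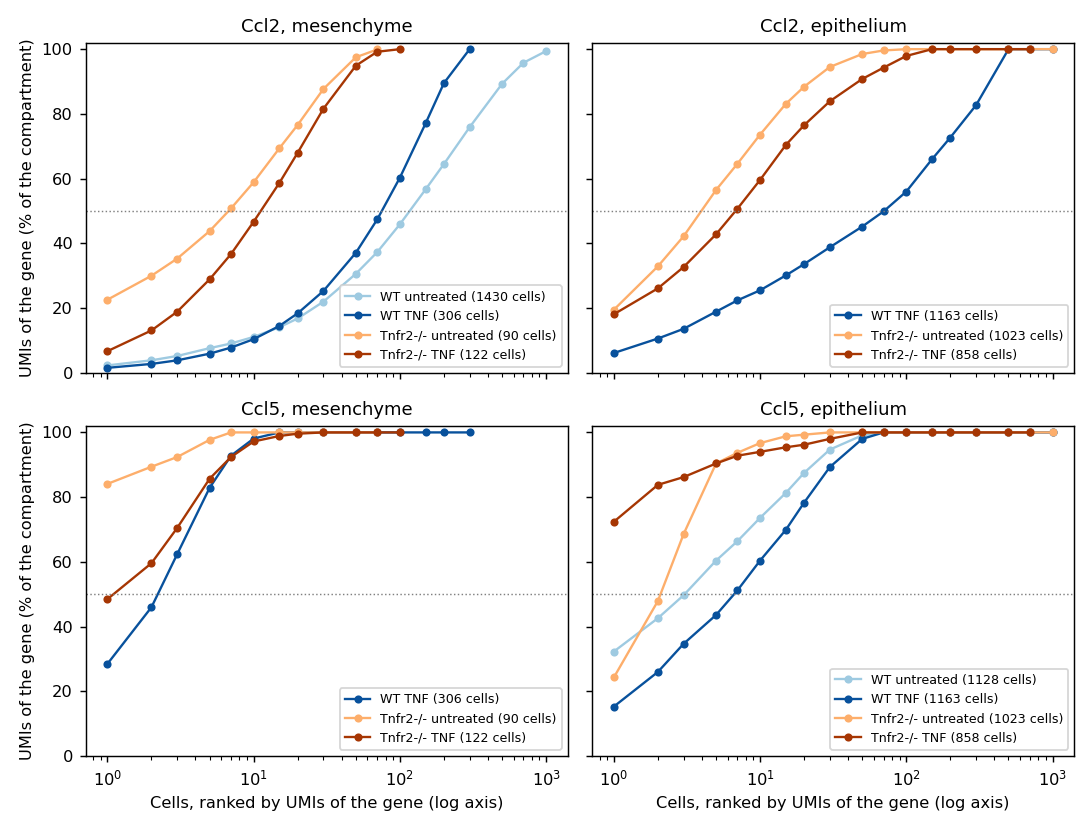
Running share of the UMIs of Ccl2 and Ccl5 in a compartment (%) against the number of cells taken (log axis), from the cell with the most UMIs down, 1 line per library, with a dotted line at 50%. In the Tnfr2-/- TNF mesenchyme 9 of 122 cells hold 96.4% of Ccl5, whereas 76 cells are needed for 50% of Ccl2 in the WT TNF mesenchyme.

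Ccl20, the CCR6 ligand that gut epithelium is known to make, was the one member past the filter that was higher in the epithelium of all 4 libraries. Its epithelial level was 13 CPM (12–14), 119 (116–123), 42.2 (40.4–44) and 74.8 (72.1–77.5), against 19, 9, 0 and 13 UMIs in the whole mesenchyme. WT TNF was highest and WT untreated lowest, and no pair of intervals overlapped. The ratio of TNF to untreated was 9.21 (8.49–10) in WT and 1.77 (1.68–1.88) in Tnfr2-/-. The untreated Tnfr2-/- culture was at 3.25-fold (2.98–3.55) the untreated WT culture.

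Ccl20 was seen in a minority of epithelial cells in every library. Thinned, 2.4% (1.57–3.49), 19.8% (17.2–22.6), 9.6% (7.83–11.6) and 11.9% (9.83–14.3) of epithelial cells held a UMI, where intervals are exact Clopper-Pearson, against 0.212%, 0%, 0% and 2.5% of mesenchymal cells. The values of 0% were 0 of 298 and 0 of 86 cells, with upper bounds of 1.23% and 4.2%. Thinning to 5000 UMIs kept only 2 of the 246 cells of a class marked by Reg4 and Ang4 in WT TNF. Thinned to 2000 UMIs, the epithelial shares were 1.34%, 10.5%, 5.63% and 6.76%. In WT TNF, 79 of 1163 cells with 20 or more UMIs held 72.9% of the transcript, and 68 of them were progenitors of the first and second class (33 and 35 cells). The 2 Tnfr2-/- libraries had 26 and 36 such cells.

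Among class sums of at least 20 cells, Ccl20 was highest in the first and second progenitor classes of WT TNF, and the third was at 35.1 CPM there. In the first progenitor class it was at 8.43, 106, 32.6 and 98.7 CPM, with ratios of 12.6 (11–14.5) for TNF in WT and 3.03 (2.73–3.36) in Tnfr2-/-. In the second progenitor class it was at 44.1, 186, 91.5 and 72.3 CPM, so that WT TNF was at 4.23-fold (3.36–5.41) and Tnfr2-/- TNF lay below its untreated counterpart. In WT untreated 1 of the 62 cells of that class held 52 of 74 UMIs, and without the top cell of each library the WT fold was 13.2 there and 15 in the first class. The second class made up 716 of 858 epithelial cells in Tnfr2-/- TNF and 62 of 1128 in WT untreated. The absorptive class reached 324 CPM in WT TNF from 19 cells, against 18.8 CPM over 319 cells in WT untreated.

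Ccl6 and Ccl9, neighbours with a gap of 9.25 kb and 0 protein-coding genes between them, were counted mostly in secretory epithelium, except in Tnfr2-/- TNF. Ccl6 was at 26.4, 147, 15.8 and 2.19 CPM in the epithelium, highest in WT TNF and lowest in Tnfr2-/- TNF. Ccl9 was at 3.99, 12.6, 4.94 and 0.503 CPM, in the same order at the extremes. In the mesenchyme Ccl6 had 3, 11, 0 and 0 UMIs and Ccl9 had 0, 3, 0 and 0. For a sum at 0 the limit of 3 counts is 0.0862 CPM in the mesenchyme of WT untreated, 1.38 CPM in that of Tnfr2-/- untreated and 0.629 CPM in that of Tnfr2-/- TNF.

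The secretory cells themselves differed in number between the libraries. The class marked by Reg4, Spdef and Lyz1 had 73, 111, 63 and 8 cells, and within it Ccl6 was at 394, 784, 279 and 157 CPM and Ccl9 at 50.7, 70.7, 82.8 and 14.9 CPM. The class marked by Reg4 and Ang4 occurred in WT TNF alone, with 246 cells and a median of 1958 UMIs, and held Ccl6 at 1242 CPM. It gave 10.4% of the Ccl6 UMIs of the WT TNF epithelium, and the Reg4, Spdef and Lyz1 class gave 83.3%. In Tnfr2-/- TNF the latter class gave 48.3% of the Ccl6 and 20% of the Ccl9 UMIs. Among deep crypt secretory markers, 5 of 5 tested were at least 2-fold lower in the Tnfr2-/- TNF than in the WT TNF epithelium, and among goblet markers 4 of 6. Of the 9747 genes tested there, 7.73% were lower by as much. In the epithelial sum, fewer secretory cells and less transcript per cell cannot be told apart.

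Upstream sequence was at hand for 4 of the 8 members (RefSeq, GRCm38.p6), and it is shown for Ccl20, Ccl9, Ccl6 and Ccl8 because 3 of them are the epithelial members, whose levels were highest in WT TNF, and the fourth was low with TNF. Each line gives the 250 bases before the annotated start, 5′ to 3′ on the gene's strand, and capitals mark matches to any of 3 motifs searched on both strands: the NF-kB consensus, the AP-1 motif TGANTCA and the TATA box TATAAA.
Ccl20 (chr1:83116516-83116765, plus strand): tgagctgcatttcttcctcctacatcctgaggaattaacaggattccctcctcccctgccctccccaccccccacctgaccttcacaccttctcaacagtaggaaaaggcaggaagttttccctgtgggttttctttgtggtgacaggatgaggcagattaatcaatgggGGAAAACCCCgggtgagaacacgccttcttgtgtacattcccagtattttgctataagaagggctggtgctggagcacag
Ccl9 (chr11:83578637-83578886, minus strand): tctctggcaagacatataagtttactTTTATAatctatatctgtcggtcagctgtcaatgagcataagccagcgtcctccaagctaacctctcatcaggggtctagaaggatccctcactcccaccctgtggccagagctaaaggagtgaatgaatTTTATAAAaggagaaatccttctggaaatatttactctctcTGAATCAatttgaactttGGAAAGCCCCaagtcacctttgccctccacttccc
Ccl6 (chr11:83593088-83593337, minus strand): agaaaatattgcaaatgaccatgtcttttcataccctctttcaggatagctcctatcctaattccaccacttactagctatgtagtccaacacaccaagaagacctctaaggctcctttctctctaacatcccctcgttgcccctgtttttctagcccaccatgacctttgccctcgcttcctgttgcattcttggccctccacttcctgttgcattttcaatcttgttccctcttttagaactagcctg
Ccl8 (chr11:82114935-82115184, plus strand): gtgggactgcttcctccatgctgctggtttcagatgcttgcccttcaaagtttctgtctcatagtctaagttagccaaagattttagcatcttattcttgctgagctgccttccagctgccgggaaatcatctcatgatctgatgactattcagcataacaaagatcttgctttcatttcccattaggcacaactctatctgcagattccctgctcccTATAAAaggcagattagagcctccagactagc
The NF-kB consensus was matched in Ccl20, at -80 to -71 from the start, and in Ccl9, at -35 to -26, both on the minus strand relative to the gene, and not in the windows of Ccl6 and Ccl8. TGANTCA occurred in Ccl9 at -53 to -47, where the same bases were read on both strands. TATAAA occurred in Ccl8 at -32 to -27 and in Ccl9 at 3 places, of which the last 2 overlap. Of 32851 windows of this length, 3.9% held the NF-kB consensus, 6.75% TGANTCA and 12.4% TATAAA. A match describes these letters and does not show binding.

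The mesenchymal members were also counted at low levels in the epithelium. Ccl2 was at 0.834, 24.1, 36.5 and 21.1 CPM there and Ccl7 at 0.676, 7.04, 6.85 and 7.06 CPM, so that WT untreated was the low library for both. Ccl2 in the epithelium amounted to 0.11%, 0.243%, 2.03% and 0.826% of its mesenchymal level, whereas the mesenchymal markers had a median of 0.0861%, 0.29%, 0.028% and 0.08%, with a highest marker at 0.287%, 0.631%, 0.122% and 0.211%. In the WT libraries the Ccl2 share lay below the highest marker, and in the Tnfr2-/- libraries it lay above it. For Ccl7 the shares were 0.277%, 0.571%, 1.94% and 2.48%, in the same relation to the markers. Ccl8 and Ccl11 were at or under 2.07 CPM in all 4 epithelia.

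The epithelial Ccl2 was held differently in each library. In WT TNF, 472 of 1163 epithelial cells had a UMI, and 6 cells with 20 or more UMIs held 21% of the total. In Tnfr2-/- untreated, 18 of 1023 cells held 86.7%, with up to 361 UMIs in 1 cell, and 17 of them were progenitors of the first and second class. Those 18 cells had mesenchymal markers at 3.16 CPM, below the 5.67 CPM of the remaining cells, and epithelial markers at 18562 against 12097 CPM. Their immune list was at 96.1 against 49.3 CPM, and their median was 73588 UMIs per cell, against 41057 over that epithelium. In Tnfr2-/- TNF, 13 of 858 cells held 67.1%, all in the second progenitor class, and their mesenchymal markers were at 74.3 CPM against 5.58 CPM in the remaining cells. Their immune list was at 63.8 against 49.4 CPM, and their median was 93192 UMIs per cell, against 37368.5 over that epithelium. Whether cells with many Ccl2 UMIs were doublets was not tested. In the Ang4 class of WT TNF, Ccl2 was at 447 CPM, or 4.53% of the mesenchymal level, inside the 4.28% to 42.1% of the mesenchymal markers detected there.

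With TNF in WT cultures, 5 of the 6 members tested in the epithelium were at least 2-fold higher and 0 lower. Tested means 5 CPM or more in 1 of the libraries compared, and differences are log2 of CPM + 1. Over the 9565 genes tested, 2.95% were higher and 1.05% lower by as much. The differences were 3.77 for Ccl2, 3.11 for Ccl20, 2.43 for Ccl6, 2.26 for Ccl7 and 1.44 for Ccl9, and -0.10 for Ccl5, while Ccl8 and Ccl11 fell under the filter. As ratios without the added 1, Ccl2 was at 28.8-fold (21.2–40.3), Ccl7 at 10.4-fold (7.29–15.3), Ccl6 at 5.57-fold (5.25–5.92) and Ccl9 at 3.15-fold (2.67–3.72). With a minimum of 20 CPM or a pseudocount of 10, 3 members remained past 2-fold. Equal weight for the classes of at least 20 cells in both libraries, which leaves out the absorptive and Ang4 classes, also left 3. In the same epithelium 2 of 2 tested mesenchymal markers were higher, Vim at 4.03 and 10.8 CPM and Dcn at 1.33 and 5.44 CPM, as were 5 of 6 goblet markers, and their part in the values of Ccl2 and Ccl7 and of Ccl6 and Ccl9 was not tested. Within the Reg4, Spdef and Lyz1 class the TNF differences of Ccl6 and Ccl9 were 0.99 and 0.47, inside 2-fold. In epithelial cells without UMIs of Col1a1, Col1a2 or Col3a1, Ccl2 was at 3.53 and Ccl7 at 2.38. Cells with UMIs of Vim or Dcn alone were not left out there.

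In the WT mesenchyme with TNF, 3 of 5 members tested were at least 2-fold higher and 2 lower, against 6.17% and 7.81% of 10306 genes. Ccl5 (4.08), Ccl2 (3.70) and Ccl7 (2.33) were the higher ones and Ccl11 (-5.12) and Ccl8 (-2.26) the lower ones. The Ccl5 ratio of 156 (60–575) rested on 4 UMIs in the untreated library. With each cell's UMIs of a gene capped at 20, which flattens genes that most cells hold far above that number, 3 members were past 2-fold and Ccl2 was at 0.20.

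With TNF in Tnfr2-/- cultures, fewer members were past 2-fold in the epithelium. There, 0 of 5 tested members were higher and 1 lower, against 4.93% and 8.6% of 9717 genes. The lower member was Ccl6 (-2.40, 7.22-fold, 5.78–9.12), and Ccl20 (0.81), Ccl7 (0.04), Ccl2 (-0.76) and Ccl5 (-0.83) were inside 2-fold. Within the first and second progenitor classes Ccl2 was past 2-fold lower with TNF, at ratios of 0.269 (0.155–0.435) and 0.176 (0.161–0.192). In the mesenchyme 1 of 5 was higher and 2 lower, against 7.09% and 8.04% of 10234 genes. These were Ccl5 (2.95, 7.86-fold, 6.6–9.44), Ccl11 (-5.95) and Ccl8 (-1.02), and Ccl2 (0.51) and Ccl7 (-0.30) were inside 2-fold. Within the Ptges class alone, the ratio of TNF to untreated was 1.92 (1.81–2.04) for Ccl2 and 1.16 (0.999–1.35) for Ccl7. Without the top cell of each library these ratios were 2.34 and 1.44. Ccl8 stood at the edge of the threshold and was at -0.87 with TMM or median-of-ratios scaling. It was at -0.52 in cells without UMIs of Krt8, Epcam or Cdh1. With median-of-ratios scaling Ccl20 in the epithelium passed it, at 1.05.

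Between the untreated cultures, members were more often higher than lower in Tnfr2-/-. In the epithelium 4 of 5 tested members were at least 2-fold higher and 0 lower, against 3.2% and 3.85% of 9699 genes. Ccl2 (4.35, 43.8-fold, 32.3–60.9), Ccl7 (2.23, 10.1-fold, 7.12–14.9), Ccl20 (1.63) and Ccl5 (1.48, 2.99-fold, 2.69–3.33) were the higher ones, and Ccl6 was at -0.70. In the Tnfr2-/- untreated epithelium 18 of 1023 cells held 86.7% of the Ccl2 UMIs. For Ccl7, 5 cells held 72%, with 115 of 347 UMIs in 1 cell. The intervals do not cover this uneven spread over cells. In the mesenchyme 2 of 5 were higher and 0 lower, against 3.92% and 5.56% of 10230 genes. These were Ccl5 (5.79, on 4 UMIs in WT) and Ccl2 (1.24), with Ccl7 at 0.53, Ccl11 at -0.50 and Ccl8 at -0.62. Ccl5 in the epithelium rested on few cells and was at -0.26 with the cap of 20 UMIs and at -0.35 with equal weight for the classes of at least 20 cells in both libraries, which leaves out the absorptive and enteroendocrine classes, and the epithelial count fell to 2 with the cap or a pseudocount of 10.

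Between the TNF cultures, the members at least 2-fold apart were mostly lower in Tnfr2-/-. In the epithelium 0 of 6 tested members were higher and 2 lower, against 4.87% and 7.73% of 9747 genes. The lower ones were Ccl6 (67.2-fold, 54.4–84) and Ccl9 (25-fold, 16–41.3), and Ccl20 (-0.67), Ccl2 (-0.18), Ccl7 (0.00) and Ccl5 (0.75) were inside 2-fold. In the mesenchyme 1 of 5 was higher and 3 lower, against 7.28% and 9.78% of 10216 genes. Ccl7 (-2.11, 4.32-fold, 4.09–4.57), Ccl2 (-1.95, 3.87-fold, 3.8–3.94) and Ccl11 (-1.33, 2.94-fold, 1.78–5.18) were lower, Ccl5 was higher (4.66, 26.7-fold, 23.5–30.4) and Ccl8 was at 0.62. Both mesenchymes were made of Ptges cells, and the Tnfr2-/- to WT ratios within that class were 0.257 for Ccl2, 0.23 for Ccl7 and 27.5 for Ccl5. Comparisons that have a library in common are not independent of each other.

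**Figure D5:**
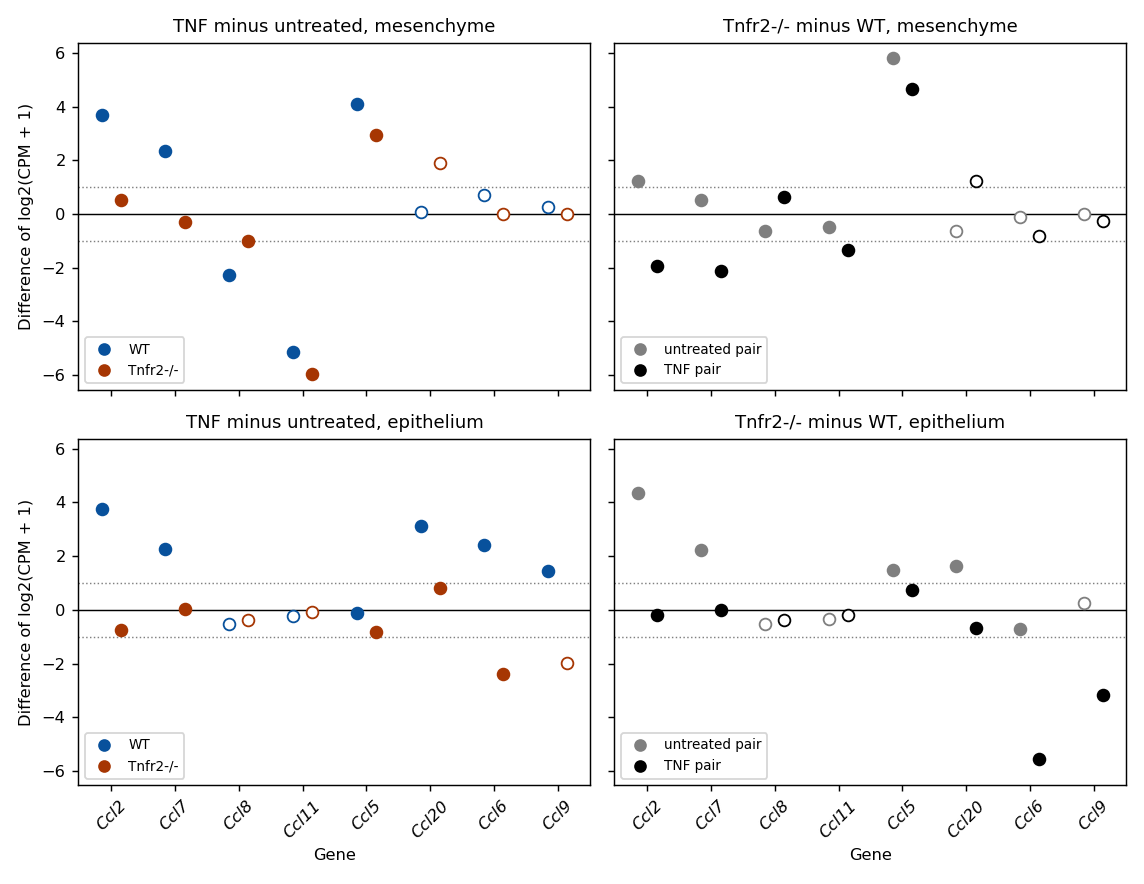
Log2 difference of CPM + 1 for each member in the 4 comparisons, epithelium and mesenchyme apart, with dotted lines at 2-fold in each direction and open symbols for members under 5 CPM in both libraries. In WT with TNF, Ccl2 and Ccl7 are higher in both compartments and Ccl8 and Ccl11 lower in the mesenchyme.

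Of the 15 other CC ligands looked up, few were counted. In the epithelium Ccl28, which mucosal epithelia are known to make, was at 57.4, 32.1, 42.3 and 17.2 CPM, with the TNF culture the lower one of each genotype, and Ccl25, the thymic and gut ligand of CCR9, was at 11, 12.3, 16 and 9.83 CPM. In the mesenchyme Ccl12, a further CCR2 ligand encoded between Ccl11 and Ccl8, was at 20.9, 3.94, 0 and 0 CPM, and Ccl25 and Ccl27a were also past 5 CPM. None of the 15 receptors reached 5 CPM in the epithelium. Ccr6, the receptor of Ccl20, had 0 UMIs in both compartments of every library, and Ccr2 was at or under 0.172 CPM in the epithelium. The atypical receptor Ackr4, which takes up CC chemokines without signalling through G proteins, was at 13.2, 33.5, 48.7 and 31.6 CPM in the mesenchyme.

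The wider stromal inflammatory list of 18 genes, which holds cytokines and CXC chemokines, was looked up for the same comparisons. With TNF in WT, 9 of 14 tested genes were higher and 2 lower in the mesenchyme, with a median difference of 2.42 against -0.01 over all genes, and 8 of 11 were higher in the epithelium with a median of 1.59 against 0.06. In Tnfr2-/- the mesenchyme had 8 of 15 higher and 3 lower (median 1.06 against -0.12), and the epithelium 2 of 10 higher (0.38 against -0.15). Over all genes tested, 6.17% and 2.95% were higher in the WT mesenchyme and epithelium, and 7.09% and 4.93% in those of Tnfr2-/-. In the mesenchyme 7.81% of genes in WT and 8.04% in Tnfr2-/- were lower. Csf3, the neutrophil growth factor, was at 7.1, 116, 16.5 and 168 CPM in the mesenchyme, and Cxcl2, a neutrophil ligand, at 40.2, 672, 256 and 1024 CPM. Both were highest in Tnfr2-/- TNF, where Ccl2 and Ccl7 were not. Il6 was at 4.83, 45.1, 9.65 and 1.26 CPM and so was highest in WT TNF. Cxcl12, the homeostatic stromal ligand of CXCR4, was at 52.9, 16.4, 15.2 and 3.35 CPM and was low with TNF like Ccl8 and Ccl11.

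The feedback genes of the NF-kB pathway, a list of 9, were looked up for the TNF comparisons. In WT, 6 of 8 tested were at least 2-fold higher in the epithelium and 4 of 9 in the mesenchyme, and in Tnfr2-/- 2 of 8 and 1 of 9, with 0 lower in any of these. Over all genes tested the shares higher by as much were 2.95%, 6.17%, 4.93% and 7.09%. The 1 of 9 in the Tnfr2-/- mesenchyme is a single gene and is not set apart from that share. Tnfaip3, which encodes the inhibitor A20, was at 23.6, 58.9, 31.3 and 93 CPM in the epithelium, and Tnip3 at 4.8, 60.1, 9.65 and 50.7 CPM in the mesenchyme. Tnf itself was at 12.5, 59.6, 40.9 and 71.7 CPM in the epithelium. For both of these epithelial genes the order of the cultures was that of untreated below TNF within each genotype, with Tnfr2-/- above WT within each treatment.

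The genes most like each member were taken by Pearson r of log2(CPM + 1) over 27 sums of a class in a library, among 10112 genes. Ccl2 was most like Ccl7 (0.97), Itga5 (0.96) and Ptges (0.96), and Ccl8 like Igf1, Olfml3 and Tmem119 (each 0.98). For Ccl11 the nearest were Epha3 (0.99), Prickle1 and Lama1 (both 0.98). Ccl6 was nearest to Tpsg1 and Best2 (both 0.96) and then to Ccl9 (0.94), and Ccl9 to Creb3l4 (0.96), Galnt5 (0.95) and Ano7 (0.94). Ccl20 was nearest to Gsta4 (0.93), and Ccl5 had no close neighbour, with Kcnf1 at 0.70. Among members, Ccl8 and Ccl11 were at 0.92 and Ccl8 and Ccl20 at -0.70. Ccl20 was at 0.27 with Ccl6 and at 0.18 with Ccl9, so that the members counted mostly in epithelium did not all go together. The sums share libraries and fall into an epithelial and a mesenchymal group, so that these values carry no test. How far they reflect compartment or class was not tested.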

How the data were processed

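Single-cell 3' libraries (10x Chromium) of 4 cultures were analysed, 1 per group. The authors made the deposited UMI counts with Cell Ranger 5.0.0 on mm10 (per the labels) and, per their methods, removed cells under 100 UMIs and doublets of epithelium with mesenchyme in monocle3. No doublet caller was run here. Deposited classes were used as given. Size factors, deposited as a score for every cell, served only to check the order of cells, and plotting coordinates were not used. UMIs were summed per compartment or class and library and scaled to CPM. Differences are log2(CPM + 1), tested at 5 CPM or more in 1 library of a pair and counted past 2-fold. No test between groups was possible with 1 library each. Intervals (95%) are exact Poisson, exact conditional binomial for ratios, and Clopper-Pearson for shares, and cover counting error only. Depth was 44547639 to 87228093 UMIs per library. A sum at 0 is given its limit of 3 counts.

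Shares of cells used random thinning to 5000 UMIs. Likeness used classes of 20 or more cells. The members and lists were chosen with earlier results of these data known, and the named genes are the 8 members, 3 most-like genes per member and list genes past the filter. List genes named beyond these were chosen after their values were seen. Coordinates and coding exons came from GENCODE M21 (GRCm38) and upstream windows from RefSeq (GRCm38.p6). The counting of differences was tested on simulated data. Alternatives were pseudocounts of 0.1 and 10, filters of none and 20 CPM, TMM (edgeR 4.0.16) and median-of-ratios (DESeq2 1.42.0) scaling, a mean over cells, equal weight for classes of 20 or more cells in both libraries, cells of 2000 UMIs or more, cells without UMIs of the other compartment's markers, leaving out the Ang4 class and, added after seeing the data, a cap of 20 UMIs per cell and gene and class levels without the cell highest in the member. For leaving out cells with the other compartment's markers, only Col1a1, Col1a2 and Col3a1 (mesenchyme) and Krt8, Epcam and Cdh1 (epithelium) were used, not the full lists. Scripts used Python 3.11.15 with numpy 2.4.6, scipy 1.17.1 and pandas 2.3.3, and R 4.3.3.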

Additional observations from a re-analysis of the deposited data

Results flagged for a closer look

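The results below had opposite signs in the 2 pairs of libraries that make the same contrast, on the log2(CPM + 1) scale. Each pair is 1 culture against 1 culture, and the difference between the pairs was not tested. In the epithelium, the TNF minus untreated difference of Ccl2 was 3.77 in WT and -0.76 in Tnfr2-/-, and that of Ccl6 was 2.43 and -2.40. In Tnfr2-/- untreated 18 of 1023 epithelial cells held 86.7% of the Ccl2 UMIs. The share of thinned Tnfr2-/- epithelial cells with Ccl2 was 3.23% untreated and 4.85% with TNF, so it did not fall with the sum. In the mesenchyme, the TNF minus untreated difference of Ccl7 was 2.33 in WT and -0.30 in Tnfr2-/-. Within the Ptges class alone it was 1.41 in WT and, inside 2-fold, 0.21 in Tnfr2-/-, so that the signs were not opposite there. The Tnfr2-/- minus WT difference in the epithelium was 4.35 untreated and -0.18 with TNF for Ccl2, and 1.63 and -0.67 for Ccl20. In the mesenchyme it was 1.24 and -1.95 for Ccl2, 0.53 and -2.11 for Ccl7, and -0.62 and 0.62 for Ccl8. The contrasts of a gene share libraries, so that the TNF and genotype values of Ccl2 and Ccl7 are not separate observations. The values -0.76, -0.30, -0.18, 0.53, -0.67, -0.62 and 0.62 were inside 2-fold.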

How the results depend on the processing

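No paired analysis was possible because each group had 1 library and no result came from a test, and for the same reason no replicate could be left out. Equal weight below is over classes of at least 20 cells in both libraries, so that between the TNF epithelia it holds neither class marked by Reg4. The number of members past 2-fold moved by over 1.5 times as follows. For TNF in the WT epithelium, 5 became 3 with a pseudocount of 10, a 20 CPM minimum or equal weight per class. For TNF in the WT mesenchyme, 5 became 3 with the cap of 20 UMIs per cell. For TNF in the Tnfr2-/- epithelium, 1 became 2 with median-of-ratios scaling, with cells without UMIs of the other compartment's markers, with no filter and with equal weight per class, became 3 as a mean over cells and 0 with a 20 CPM minimum. For genotype in the untreated epithelium, 4 became 2 with a pseudocount of 10 or the cap, and in the untreated mesenchyme 2 became 1 in cells without the other compartment's markers, with the cap or with equal weight. For genotype in the TNF epithelium, 2 became 5 as a mean over cells and 1 with a 20 CPM minimum or equal weight. The single value that changed sign while past 2-fold was Ccl5 in the untreated epithelium, from 1.48 to -0.26 with the cap and -0.35 with equal weight. Ccl2 in the untreated mesenchyme (1.24) was at 0.08 with the cap. The cap lowers genes held at high counts by construction, and otherwise the cause was not tested. Depth limits Ccl5, Ccl6, Ccl9 and Ccl11 where sums held under 20 UMIs.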
